A study of Mus musculus with 2 samples.

Results

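The genes described here are 34 fibroblast and non-collagen matrix genes, chosen by symbol from the 23284 genes of the authors' deposited table. All 34 were found there under their current symbols. These genes and all lists set beside them were chosen with earlier results of these data known. The study collected macrophages from infarcted hearts of C57BL/6 mice on day 3 after the left anterior descending artery of the heart was tied. It sequenced 1 library of Ly6Chi and 1 library of Ly6Clo macrophages, and asked how their transcriptomes differ. Both groups share the strain, the infarct and the day, and no uninjured heart is among them. The labels do not say how the cells were sorted or whether animals were pooled.

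The values are the authors' signed comparison statistic, given per gene without a unit, and its rank by size, where 1 is the gene farthest from 0. The table's 2 columns of per-library values were not used, because their codes match neither sample's labels. For that reason a sign is not assigned to a population here, and levels, fold changes and the depth behind each score were not analysed. No source states how the score depends on a gene's abundance. Genes are described by side, positive or negative. Ly6c2, a gene of the Ly6C antigen that names the populations, serves as a landmark. It lay on the negative side at -1.78 in the authors' deposited table. A single library per population gives no replicate spread and no test. In bulk RNA, more cells of a type and more RNA per cell cannot be told apart.

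Fibroblasts build the connective tissue of the heart and, after an infarct, the scar that replaces dead muscle. Besides collagen they secrete small leucine-rich proteoglycans that coat collagen fibrils, matricellular proteins that signal during repair, and the fibrillin and elastin of elastic fibres. They also make the enzymes that crosslink these polymers. Macrophages clear debris in the same tissue, and most of these genes are not part of the usual macrophage programme.

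Promoter sequences are shown for members at the ends of the order described next, so that the DNA upstream of the highest and lowest scores can be seen side by side. Postn, Bgn and Fbn1 had the highest scores, and Tcf21 and Fmod the lowest. Each run is the 250 bases before a RefSeq start site on GRCm38.p6, the assembly also called mm10. It is written 5′ to 3′ along the gene's strand. The Postn start used lies 1840 bases inside the annotated edge of the gene, and the Fbn1 start 47 bases inside. Capitals mark any match, on either strand, to TATAAA (the TATA box), CCAAT (the CCAAT box), GGGCGG (the GC box), TGANTCA (AP-1), CAGCTG (an E-box) or CATTCC (TEAD). The windows lie at chr3:54360857-54361106 (plus strand) for Postn, chrX:73483351-73483600 (plus) for Bgn and chr2:125506439-125506688 (minus) for Fbn1. They lie at chr10:22820144-22820393 (minus) for Tcf21 and chr1:134037004-134037253 (plus) for Fmod.
Postn: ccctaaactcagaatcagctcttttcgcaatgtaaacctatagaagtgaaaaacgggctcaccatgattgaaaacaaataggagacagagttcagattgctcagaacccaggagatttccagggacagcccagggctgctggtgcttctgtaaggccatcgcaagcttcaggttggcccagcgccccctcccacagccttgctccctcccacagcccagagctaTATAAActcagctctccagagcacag
Bgn: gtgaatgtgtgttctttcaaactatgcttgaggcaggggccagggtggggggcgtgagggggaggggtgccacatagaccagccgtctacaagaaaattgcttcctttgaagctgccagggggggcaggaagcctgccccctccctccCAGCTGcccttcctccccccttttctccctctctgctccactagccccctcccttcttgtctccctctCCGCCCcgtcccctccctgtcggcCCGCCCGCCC
Fbn1: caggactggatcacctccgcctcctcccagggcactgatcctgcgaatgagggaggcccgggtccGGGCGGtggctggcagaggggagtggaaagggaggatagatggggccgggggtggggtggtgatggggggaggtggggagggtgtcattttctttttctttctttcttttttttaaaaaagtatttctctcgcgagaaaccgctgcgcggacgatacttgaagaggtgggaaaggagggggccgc
Tcf21: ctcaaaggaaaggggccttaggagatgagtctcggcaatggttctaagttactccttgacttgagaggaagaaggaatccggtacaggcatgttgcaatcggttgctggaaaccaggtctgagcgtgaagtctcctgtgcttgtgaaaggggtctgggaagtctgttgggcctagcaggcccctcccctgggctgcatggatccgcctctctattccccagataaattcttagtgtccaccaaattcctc
Fmod: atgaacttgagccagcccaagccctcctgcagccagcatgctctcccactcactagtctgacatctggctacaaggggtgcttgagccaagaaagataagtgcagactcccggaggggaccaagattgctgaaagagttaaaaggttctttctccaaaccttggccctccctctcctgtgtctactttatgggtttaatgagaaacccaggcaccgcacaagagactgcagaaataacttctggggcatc
The Postn window holds a TATA box match 26 bases before the start. The Bgn window holds GC box matches, among them those at 6 and 10 bases before the start, and an E-box match at 102. The Fbn1 window holds a single GC box match, at 185 bases, and the Tcf21 and Fmod windows hold none of the 6 motifs.

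All 34 genes had a positive statistic in the authors' deposited table, where 40.4% of all genes did. That share includes 841 genes tied at the smallest positive value, 2.42e-06, and none of the 34 is among them. Of all genes, 6982 stood at exactly 0, and of the 16302 with a score other than 0, 9399 were positive. Of the 34, 29 stood at 0.5 or more, against 3.77% of all genes, and 13 stood at 1 or more, against 0.709%. Large scores lay mainly on the positive side over all genes too, with 878 at 0.5 or more and 230 at -0.5 or less. At the stricter line, 165 genes stood at 1 or more and 15 at -1 or less. The median of the 34 was 0.89 and that of all genes was 0, both computed from the authors' deposited table. The quartiles of the 34 were 0.64 and 1.22, and those of all genes -0.03 and 0.07, from the same table. Their median rank was 269 of 23284, and 9 of the 34 were among the first 100 ranks of the authors' deposited table. The genes therefore lay on the side opposite Ly6c2, but over a wide range, from 1.74 for Postn to 0.07 for Fmod. Around the line at 0.5, Cthrc1 at 0.53 and Ddr2 at 0.52 were just inside, and Fap and Thy1, both at 0.48, just outside in the authors' deposited table.

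**Figure D1:**
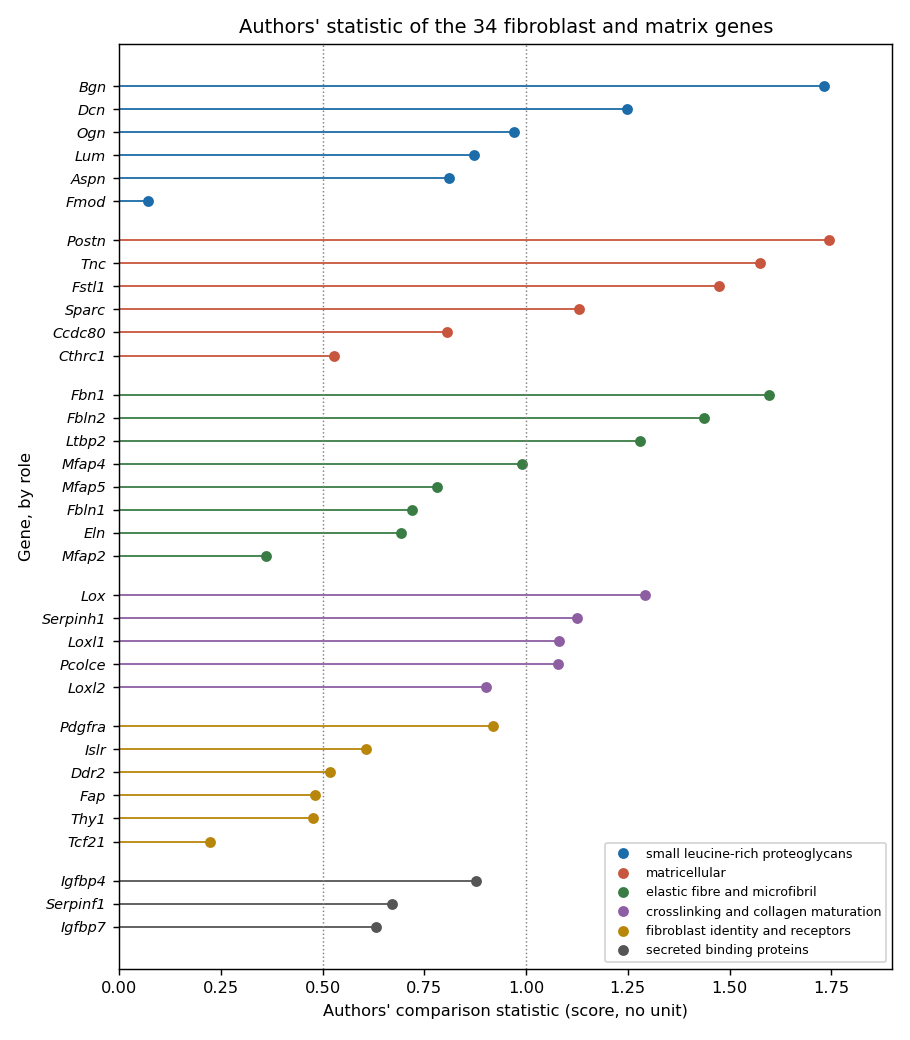
Authors' comparison statistic (score, horizontal axis) of each of the 34 genes, in 6 role groups by colour, with dotted lines at 0.5 and 1. All points lie right of 0, from Fmod at 0.07 to Postn at 1.74.

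The matricellular group held the highest median, 1.30 over 6 genes, computed from the authors' deposited table. Postn encodes periostin, a protein that activated cardiac fibroblasts secrete into a forming scar. In the authors' deposited table it had 1.74 at rank 20, the highest of the 34. Tnc, which encodes tenascin-C, a glycoprotein re-expressed at sites of injury, followed at 1.57, rank 39, in the authors' deposited table. Fstl1, a secreted follistatin-like glycoprotein gene, had 1.47, and Sparc, whose collagen-binding product takes part in scar assembly, had 1.13 in the authors' deposited table. Ccdc80, a secreted matrix-associated protein gene, had 0.81 in the same deposited table of the authors. Cthrc1, a secreted product of activated fibroblasts, was the lowest of the group at 0.53, rank 1000, in the authors' deposited table. All 6 passed 0.5 and 4 passed 1.

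The 6 small leucine-rich proteoglycan genes had the widest range of any group, with 5 at 0.5 or more and Fmod near 0. Bgn, on chromosome X from 73483601 to 73495936, encodes biglycan, which binds collagen and can signal through Toll-like receptors. Its statistic was 1.73, rank 23, in the authors' deposited table. Dcn encodes decorin, which binds collagen fibrils and TGF-beta, and had 1.25, rank 89, in the authors' deposited table. Ogn, the osteoglycin gene, had 0.97, Lum, the lumican gene, had 0.87 and Aspn, the asporin gene, had 0.81 in the authors' deposited table. Fmod, the gene of the collagen-binding proteoglycan fibromodulin, had 0.07, rank 10261.5, in the authors' deposited table. That value is shared by 191 other genes of the table, so the score does not separate Fmod from them. The group's median was 0.92, computed from the authors' deposited table.

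Dcn, Lum, Aspn and Ogn sit in gene clusters whose other genes had values from -0.30 to 0.24 in the authors' deposited table. On chromosome 10 the protein-coding genes Dcn, Lum, Kera and Epyc lie within 202 kb. Dcn and Lum had 1.25 and 0.87, while Kera and Epyc, proteoglycan genes known mainly from cornea and cartilage, had exactly 0 in the authors' deposited table. A score of 0 is held by 6982 genes, so it does not separate Kera and Epyc from the rest of those. On chromosome 13 the genes Ecm2, Aspn, Omd and Ogn lie within 120 kb. Aspn and Ogn had 0.81 and 0.97, while Omd, the osteomodulin gene between them, had -0.30 and Ecm2 had 0.24 in the authors' deposited table. Over the 10 other leucine-rich proteoglycan genes, 5 were positive, 2 negative and 3 at 0 in the authors' deposited table. Only Prelp, at 0.71, reached 0.5 among those 10 in the authors' deposited table.

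**Figure D2:**
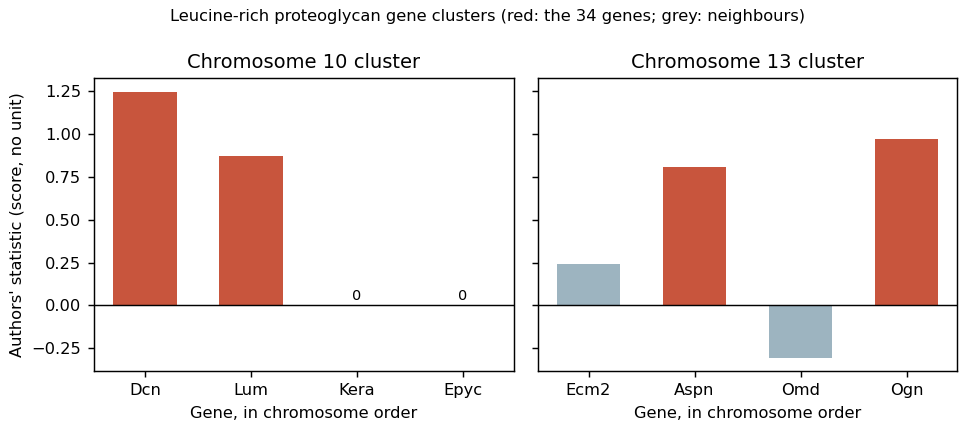
Authors' comparison statistic (score, vertical axis) of the genes of both leucine-rich proteoglycan clusters in chromosome order, with the genes described here in red and their neighbours in grey. Dcn, Lum, Aspn and Ogn stand at 0.81 or more, and the 4 neighbours lie between -0.30 and 0.24.

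Of the 8 genes of elastic fibres and microfibrils, 7 stood at 0.5 or more, with a median of 0.88 computed from the authors' deposited table. Fbn1 encodes fibrillin-1, the backbone of microfibrils, and lies on chromosome 2 from 125300594 to 125506485. Its score was 1.60, rank 35, in the authors' deposited table. Fbln2, a fibulin gene, had 1.44, and Ltbp2, whose product binds fibrillin, had 1.28 in the authors' deposited table. Mfap4, which encodes an elastin-binding glycoprotein, had 0.99 in the authors' deposited table. The related fibulin gene Fbln1 had 0.72, and Eln, which encodes the elastin core of the fibre, had 0.69 in the authors' deposited table. The paired microfibril glycoprotein genes Mfap5 and Mfap2 stood apart, at 0.78 and 0.36 in the authors' deposited table. The Mfap2 value is shared by 6 other genes. Of 15 other genes of these fibres, 12 were positive and 4 reached 0.5 in the authors' deposited table. Ltbp3, a gene of a latent TGF-beta binding protein, led at 0.71, followed by Fbn2, the second fibrillin gene, at 0.63 and Ltbp4 at 0.60 in the authors' deposited table.

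The 5 genes of crosslinking and collagen maturation were all between 0.90 and 1.29 in the authors' deposited table. Lox encodes lysyl oxidase, the enzyme that starts the crosslinking of collagen and elastin, and had 1.29, rank 78, in the authors' deposited table. Its relatives Loxl1, which acts on elastin, and Loxl2 had 1.08 and 0.90 in the authors' deposited table. Serpinh1 encodes HSP47, the collagen chaperone of the endoplasmic reticulum, and had 1.13 in the authors' deposited table. Pcolce, whose product speeds removal of the procollagen C-propeptide, had 1.08 in the authors' deposited table. The group's median was 1.08, computed from the authors' deposited table. Other genes of this pathway were less uniform: of 19, 14 were positive and 5 negative, and 5 reached 0.5 and 1 reached -0.5 in the authors' deposited table. Bmp1, the procollagen C-proteinase that Pcolce assists, led at 1.03, rank 170, in the authors' deposited table. Adamts2, the N-proteinase, had 0.92 and Fkbp10, a collagen-folding isomerase gene, stood at 0.75, all from the authors' deposited table.

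Genes that mark the fibroblast itself had the lowest median of the 6 groups. It was 0.50 over 6 identity and receptor genes, and 3 of them reached 0.5 in the authors' deposited table. Pdgfra, the growth factor receptor gene used to find cardiac fibroblasts, had 0.92, rank 239, in the authors' deposited table. Islr, which encodes the stromal surface protein Meflin, had 0.61, rank 735.5, in the authors' deposited table, a value that 1 other gene shares. Ddr2, a receptor tyrosine kinase gene for fibrillar collagen, had 0.52 in the authors' deposited table. Fap, a surface protease gene of activated fibroblasts, and Thy1, which encodes CD90 and is also expressed by T cells, both had 0.48 in the authors' deposited table. The Thy1 value is shared by 2 other genes. Tcf21, the transcription factor gene of the resident cardiac fibroblast lineage, had 0.22, rank 3950.5, in the authors' deposited table, a value that 41 other genes share.

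The 3 genes of secreted binding proteins stood between 0.63 and 0.88 in the authors' deposited table. Igfbp4 and Igfbp7 encode binding proteins of insulin-like growth factors and had 0.88 and 0.63 in the authors' deposited table. Serpinf1, which encodes the pigment epithelium-derived factor PEDF, had 0.67 in the authors' deposited table. Among 12 other IGF-binding, serpin and related genes, 9 were positive and 3 reached 0.5 in the authors' deposited table. Igfbp5 led these at 0.96, with the complement inhibitor gene Serping1 at 0.81 and the secreted protease gene Htra3 at 0.72 in the authors' deposited table.

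Not every matrix gene lay with the 34. Of 27 other matricellular and matrix glycoprotein genes, 20 were positive and 7 negative, and 12 reached 0.5 and 5 reached -0.5 in the authors' deposited table. Thbs1, the thrombospondin-1 gene, and Spp1, the osteopontin gene, which macrophages themselves express, had -1.89 and -1.18 in the authors' deposited table. Ccn2, listed as Ctgf and a matricellular gene of fibrosis, had 1.17 in the authors' deposited table. Of 21 other fibroblast genes, 20 were positive and 3 reached 0.5 in the authors' deposited table: Cd248, a stromal surface gene, at 0.66, Dpt, the dermatopontin gene, at 0.65 and Pdgfrb, at 0.65. Over the 6 lists of other matrix and fibroblast genes, 80 of 104 genes were positive, Optc and Ccn3 (listed as Nov; both named after their values were seen) only at 2.42e-06, and 28, or 26.9%, reached 0.5 in the authors' deposited table. The 34 genes stood above this, at 85.3%. That difference carries no test, since the members and the lists were chosen with earlier results of these data known. The 16 collagen genes were all positive, 13 at 0.5 or more, with a median of 1.30 computed from the authors' deposited table.

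Markers of other cells were placed on both sides, and their part in the scores of the 34 genes was not tested. Of 13 macrophage markers, 6 were positive and 7 negative, from -0.79 for Fcgr1 to 0.59 for Cd163 in the authors' deposited table. Of these 13, 1 reached 0.5 and 3 reached -0.5, and the median was -0.21, computed from the authors' deposited table. Of 6 monocyte markers, 5 were negative, with a median of -0.89 computed from the authors' deposited table. The list holds Ly6c2, the landmark of the negative side, so the side of Ly6c2 is no separate observation. It also holds Vcan, counted above among the other matrix glycoprotein genes. All 9 dendritic cell markers were positive, 6 of them at 0.5 or more, and their median was 1.45 computed from the authors' deposited table. Of 10 myofibroblast and mural markers, 9 were positive and 2 reached 0.5, namely Cspg4, a pericyte proteoglycan gene, with 0.89 and Myh11 with 0.61, in the authors' deposited table. All 10 cardiomyocyte markers were positive, 1 of them (Myh7, named after its value was seen) only at 2.42e-06, with a median of 0.20, and 8 of 10 endothelial markers were negative, with a median of -0.19, computed from the authors' deposited table. Of 6 mesothelial and epicardial markers in the table, 4 were at exactly 0 and 2 at 0.04, and 6 Schwann cell markers ran from -0.07 to 0.15 in the authors' deposited table. The 8 T and NK cell markers in the table ran from -0.08 to 0.22, and 6 neutrophil markers from -0.998 to 0.544, in the authors' deposited table. The 34 genes thus shared the positive side with all listed collagen, dendritic cell and cardiomyocyte genes and most mural markers. Most of the cardiomyocyte and mural scores were below 0.5. Monocyte markers, Ly6c2 among them, and endothelial markers lay mainly on the negative side, most endothelial scores nearer 0 than -0.5.

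**Figure D3:**
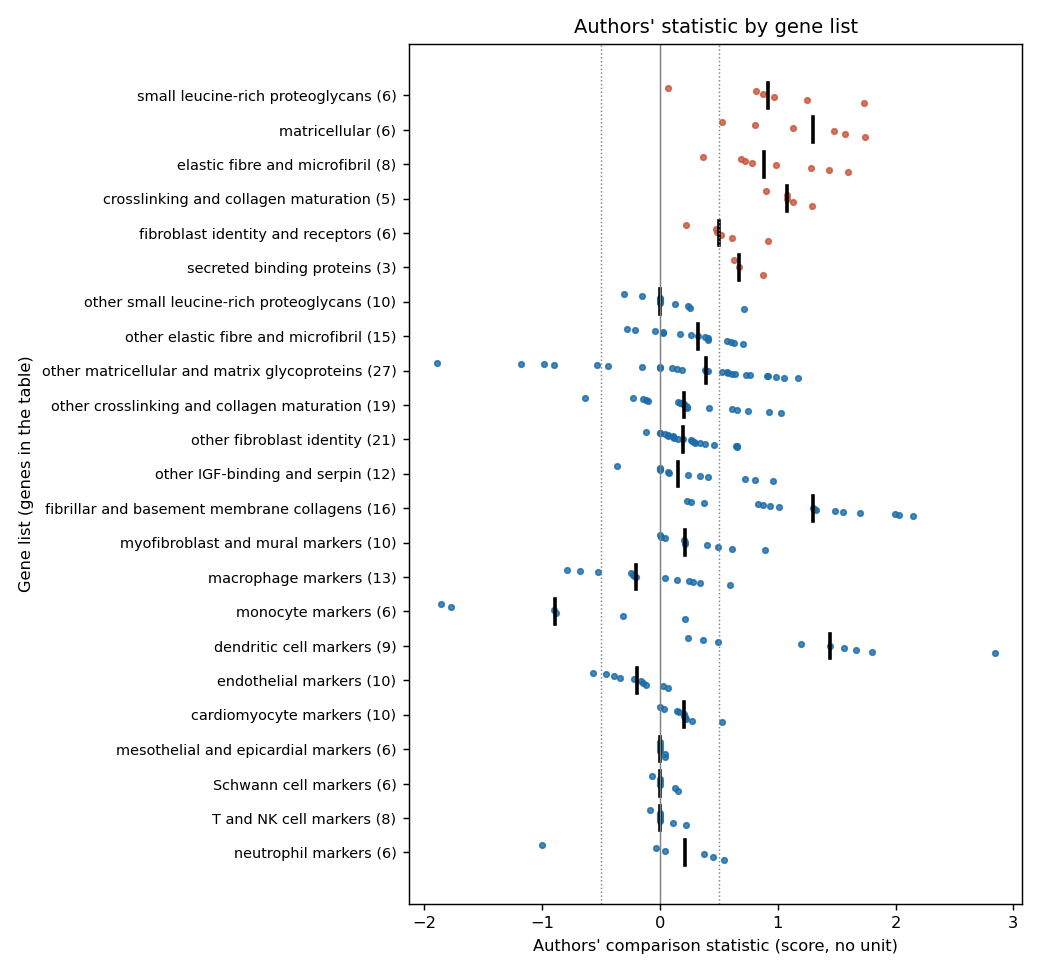
Authors' comparison statistic (score, horizontal axis) of every gene of each list, with the 34 genes in red, other lists in blue, black bars at the medians, a solid line at 0 and dotted lines at 0.5 and -0.5. The 6 red groups have medians from 0.50 to 1.30, and monocyte markers, Ly6c2 among them, have a median of -0.89.

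Longer genes among the 34 tended to have larger scores. Exon length, the bases covered by any GENCODE exon of the gene, ran from 1209 for Igfbp7 to 12128 for Fbn1, with a median of 4058. Across the 34 genes Spearman's rho between exon length and the authors' statistic was 0.51, and Pearson's r with log2 length was 0.53. Of 16302 genes with a score other than 0, 1645 have symbols that GENCODE does not list, and over the other 14657 rho between length and the size of the score was 0.12. Genes are not independent replicates and all scores come from the same pair of libraries, so these values are descriptions. Ddr2 and Eln, with 9264 and 8098 exon bases, had modest scores for their length, 0.52 and 0.69 in the authors' deposited table. Serpinh1, with 2443 bases, had 1.13 in the authors' deposited table.

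**Figure D4:**
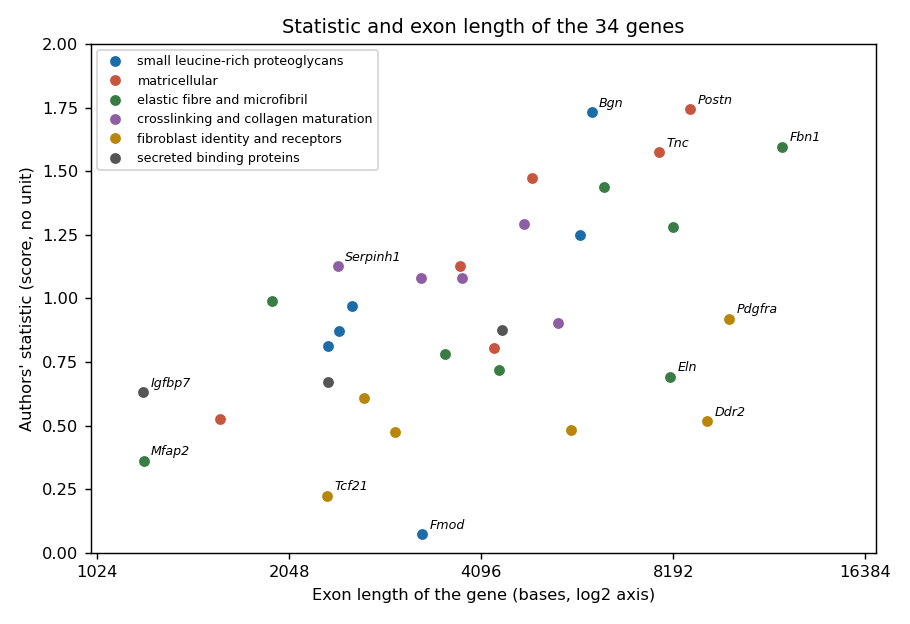
Authors' comparison statistic (score, vertical axis) against exon length (bases, log2 horizontal axis) of the 34 genes, 1 point per gene, coloured by role. Fbn1, with the longest exons at 12128 bases, stands at 1.60, and Igfbp7, with the shortest at 1209, at 0.63.

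The promoter windows were compared in number as well. RefSeq windows were at hand for 22 of the 34 genes, 26 windows in all, and their median GC content was 54.2% against 52.4% for all 32851 windows. The TATA box (TATAAA) was found in 7 of 26 windows, 26.9%, against 12.4% of all windows. These belonged to Aspn, Ddr2, Igfbp4, Ogn, Postn and Tnc. In Postn and Igfbp4 the match lay 26 and 28 bases before the start. In the other genes every match lay 126 to 229 bases before it. As for Postn, the starts used for Igfbp4 and Ddr2 lie inside the annotated gene. The Igfbp4 start is at 99041244, in a gene that runs from 99040005 to 99052655. The Ddr2 start is at 170088944, in a gene that runs from 169972307 to 170110836. The overlapping Tnc windows hold the same TATA box match and the same GC box match, each counted in both windows. The GC box (GGGCGG) was found in 12 of 26, 46.2%, against 32.7%, and the E-box CAGCTG in 6 of 26, 23.1%, against 13.0%. The CCAAT box (CCAAT) was found in 3 of 26, 11.5%, against 33.8%, and the TEAD motif (CATTCC) in 2 of 26, 7.69%, against 12.6%. The AP-1 motif (TGANTCA) had no match in the 26 windows, and 6.75% of all windows hold one. All motifs were searched on both strands, windows of the same gene can overlap, and a match describes letters only. Motif content varied within the set: the Postn window had a TATA box match close to its start and those of Bgn and Fbn1 had GC box matches without one, although these 3 genes had the highest scores.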

How the data were processed

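RNA was sequenced from 1 library each of Ly6Chi and Ly6Clo macrophages. The submitters' processing notes name CASAVA 1.8.2, TopHat and build mm10. The program that counted reads, its annotation and the origin of the statistic were not given in the sources used here. Per the file headers, the authors deposited 1 table with a score per gene (the statistic) and its ranking. Ranking the genes by the size of the score gave the deposited rank for 23284 of 23284 genes (tolerance 1e-06). The 2 columns of per-library values match no sample label and were not used, so library depth was not analysed and no p-value could be computed.

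The 34 members and all lists were chosen with earlier results of these data known. Genes were matched by symbol or, outside the 34, through a single RefSeq synonym. All members were to be named, with at most 3 genes of each other list (largest size) and neighbours of members. Coordinates and promoters came from RefSeq GRCm38.p6, and exon lengths from GENCODE. In 22 of 26 promoter windows the bases after the start lay in a GENCODE transcript of the gene. Alternatives were a threshold of 1, means for medians, leaving out 4 members or members at exactly 0, and ranks over genes with a score other than 0. Counting and motif search were tested on simulated data. Versions were Matplotlib 3.10.9, SciPy 1.17.1, pandas 2.3.3, NumPy 2.4.6 and Python 3.11.15.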

Additional observations from a re-analysis of the deposited data

How the results depend on the processing

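No paired analysis was possible because there is a single library of each population, so none can be left out either. Planned changes of scaling, low-value filter and pseudocount were not run, since they need per-library values. With a threshold of 1 in place of 0.5, the count of the 34 genes was 13 in place of 29. For the other lists it was 0 in place of 1 for leucine-rich proteoglycans, 0 in place of 4 for elastic fibre genes, 2 in place of 12 for matrix glycoproteins, 1 in place of 5 for collagen maturation, 0 in place of 3 for fibroblast identity, and 0 in place of 3 for IGF-binding and serpin genes. The collagen count was 10 in place of 13. The mean rank of the 34 genes was 798.6 against a median of 269; Fmod and Tcf21, at ranks 10261.5 and 3950.5, enter that mean. Without Thy1, Sparc, Igfbp4 and Igfbp7, 26 of 30 genes stood at 0.5 or more and the median was 0.91 against 0.89. No member was at exactly 0, so leaving such members out kept 0.89, and ranking only genes with a score other than 0 kept the median rank at 269. Means of the 6 role groups and of all 34 genes (0.93) stayed inside the 95% binomial (order-statistic) interval of their medians, which for groups of up to 8 genes is at or near their whole range. Depth was not analysed, so no precision can be given for a score.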
